A study of Mus musculus with 3 samples.

Results

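Il18, the gene of the cytokine interleukin 18 (IL-18), and 9 genes of the inflammasomes were followed across 3 colon arrays. The 10 genes were Il18, Il1b, Casp1, Casp4, Nlrp3, Nlrp6, Nlrc4, Aim2, Pycard and Gsdmd, out of 19938 genes with a probe set of their own on the GeneChip. The genes were chosen by the measured log2 signals of these same arrays, in which Il18 was highest in IL-4Rα-/- colitis, so the values of the 10 genes in the 3 comparisons are a description and were not tested. Each of the 10 had 1 probe set with a single gene symbol. Distal colon RNA was taken on day 7 from adult male mice of the BALB/c background. The IL-4Rα-/- colitis array held RNA pooled from 6 IL-4Rα-/- mice given 3% DSS in drinking water, the WT colitis array RNA from 3 WT mice given 3% DSS, and the WT normal array RNA from 4 WT mice given water. All mice were bred as littermates, and the IL-4Rα-/- mice carry a germline deletion (Il4ra tm1Sz) and thus lack the receptor subunit in every cell. Each group was 1 array, which limits the precision: no difference below has an error or a test. No array of untreated IL-4Rα-/- colon is analysed here, so IL-4Rα-/- colitis minus WT normal joins genotype and DSS, which cannot be told apart.

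An inflammasome is a protein complex that a sensor in the cytosol builds after it meets a microbial or danger signal. The sensor recruits the adaptor ASC, encoded by Pycard, and the protease caspase-1, which cuts the inactive precursors of IL-1β and IL-18 into active cytokines and cuts gasdermin D into a fragment that opens pores in the cell membrane. In the intestine IL-18 is stored as a precursor in epithelial cells, whereas IL-1β is made mainly by myeloid cells after priming. An array measures the transcript alone and neither the cutting of the precursor nor the release of the cytokine.

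The genotype and the severity of colitis differed together between IL-4Rα-/- colitis and WT colitis. The targeted gene Il4ra lay at a log2 signal of 4.76 in IL-4Rα-/- colitis, 6.63 in WT colitis and 5.69 in WT normal, lowest in the knockout but above the background guide given below. Whether its probe set reads the deleted part was not tested. In the pooled mice the disease activity index was 0 to 3 in IL-4Rα-/- colitis, 3 to 4 in WT colitis and 0 in WT normal, and body weight was 95.1% to 100.8%, 78.0% to 83.8% and 97.6% to 104.0% of the initial weight in the same order. An effect of the receptor and an effect of milder colitis therefore cannot be told apart in these pools. As a guide to background, 1210 probe sets for olfactory and vomeronasal receptors had a 95th percentile of 3.5 on the log2 scale. Of the 10 genes, 9 lay above 3.5 on all 3 arrays, and Nlrp3 lay below it on all 3. Equal values were common in the deposited table, which gives 2 decimals: 9133 genes (45.8%) had the same value on all 3 arrays, and a difference of 0 was found for 52.3% of genes between IL-4Rα-/- colitis and WT colitis. A difference of 0 is therefore given as an equal deposited value and not as proof that a transcript was the same.

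The clearest of the 10 was Il18 itself. Il18 had a log2 signal of 7.75 in IL-4Rα-/- colitis, 6.30 in WT colitis and 5.94 in WT normal. The IL-4Rα-/- colitis array stood well apart, while the 2 WT arrays lay close together. The IL-4Rα-/- colitis level was 2.73-fold that of WT colitis, a log2 difference of 1.45, and 3.51-fold that of WT normal, a log2 difference of 1.81. The WT colitis level was 1.28-fold that of WT normal. Among all 19938 genes, 24, Il18 included, were at least as far above WT colitis in IL-4Rα-/- colitis, and 8 were at least as far above WT normal. By contrast, 1887 genes were at least as far above WT normal in WT colitis. Both differences of IL-4Rα-/- colitis stayed above 2-fold under each of 5 other settings of the processing. Leaving out dim genes and averaging probe sets, which are among them, could not change these differences, since Il18 had 1 probe set.

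**Figure D1:**
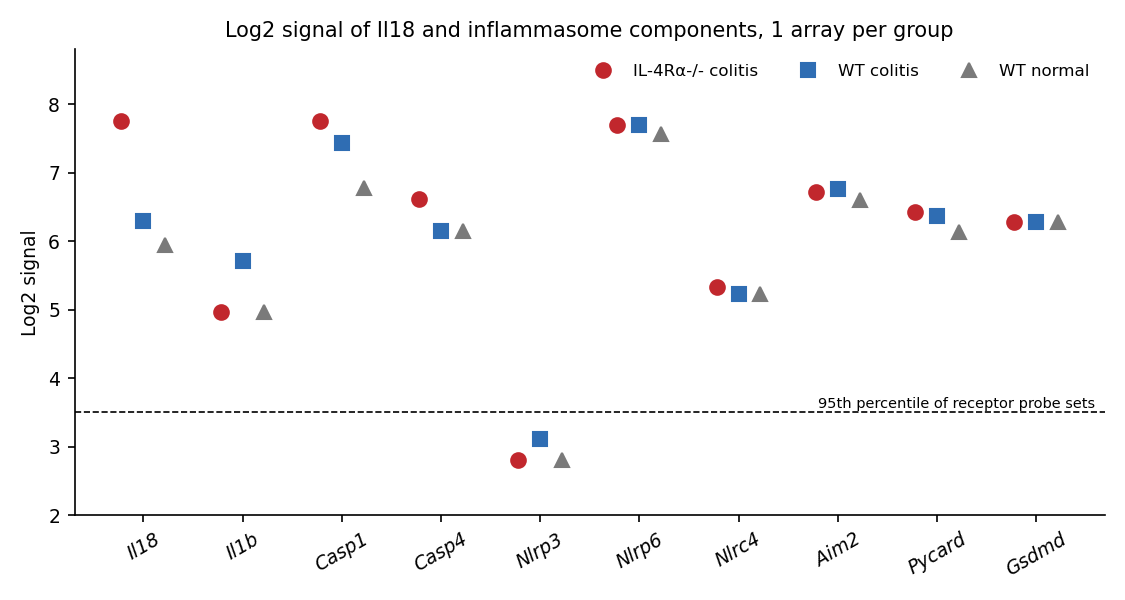
Log2 signal (y axis) of each of the 10 genes (x axis) in IL-4Rα-/- colitis (circles), WT colitis (squares) and WT normal (triangles), 1 point per array of pooled RNA, with the dashed line at 3.5, the 95th percentile of 1210 olfactory and vomeronasal receptor probe sets. Il18 at 7.75 in IL-4Rα-/- colitis lies apart from 6.30 and 5.94 in the WT arrays, and Nlrp3 lies below the line on all 3 arrays.

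The DNA before the start of the genes that differed most is shown because IL-4Rα signals through the transcription factor STAT6, whose sites have the letters TTC and GAA with 4 bases between them. The 250 bases before each start site were taken from RefSeq (GRCm38.p6), in which 9 of the 10 genes were matched, all but Gsdmd. Capitals mark matches on either strand to this STAT6 type, to GGG and CC with 5 bases between them (NF-κB type), to TGANTCA (AP-1 type) or to GAAA and GAAA with 2 bases between them (core of the interferon-stimulated element), and overlapping matches are merged. The windows are chr9:50554450-50554699 on the + strand for Il18, chr9:5298267-5298516 on the + strand for Casp1, chr9:5308599-5308848 on the + strand for Casp4 (the first of its 2 start sites) and chr2:129371140-129371389 on the - strand for Il1b.
Il18: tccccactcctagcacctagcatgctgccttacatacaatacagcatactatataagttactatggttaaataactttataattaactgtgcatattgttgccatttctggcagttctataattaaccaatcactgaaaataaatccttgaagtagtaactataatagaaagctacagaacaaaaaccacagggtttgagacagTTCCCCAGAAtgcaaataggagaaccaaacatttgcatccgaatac
Casp1: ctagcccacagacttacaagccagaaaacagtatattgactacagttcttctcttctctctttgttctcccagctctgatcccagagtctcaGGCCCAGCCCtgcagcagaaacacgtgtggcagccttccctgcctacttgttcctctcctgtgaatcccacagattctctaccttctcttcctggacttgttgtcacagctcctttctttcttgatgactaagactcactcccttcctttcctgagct
Casp4: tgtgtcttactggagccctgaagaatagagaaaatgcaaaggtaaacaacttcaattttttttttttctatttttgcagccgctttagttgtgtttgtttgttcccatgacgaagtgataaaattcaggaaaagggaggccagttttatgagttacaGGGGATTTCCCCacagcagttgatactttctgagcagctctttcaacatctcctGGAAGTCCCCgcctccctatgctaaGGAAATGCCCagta
Il1b: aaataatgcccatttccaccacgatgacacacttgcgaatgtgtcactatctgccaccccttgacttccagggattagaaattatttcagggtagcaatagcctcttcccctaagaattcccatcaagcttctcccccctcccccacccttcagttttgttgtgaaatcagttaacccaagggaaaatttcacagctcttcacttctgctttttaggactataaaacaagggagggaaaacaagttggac
Il18 had 1 match, TTCCCCAGAA, of the STAT6 type, which began 46 bases before the start site. Of 32851 windows of the same length over all RefSeq start sites, 5.85% held a match of this type. Among the 11 windows of the 9 genes, 2 held one, the other being a window of Nlrp3. Casp1 had 1 match of the NF-κB type and Casp4 had several, 3 of them overlapping in the run GGGGATTTCCCC, but 45.8% of all windows held a match of this type. None of the 4 motifs was matched in the window of Il1b. Matches to AP-1 type letters (6.75% of all windows) and to the interferon core (2.98%) were absent from all 4 windows shown. A match is a run of letters and not a measured site.

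Il1b, the other cytokine that caspase-1 activates, did not follow Il18. Its log2 signal was 4.96 in IL-4Rα-/- colitis, 5.71 in WT colitis and 4.96 in WT normal. The WT colitis array was thus high and the other 2 arrays were equal. Relative to WT colitis, Il1b was 1.68-fold lower in IL-4Rα-/- colitis, and WT colitis itself stood 1.68-fold above WT normal. On these arrays 2-fold was thus passed in neither comparison. By qPCR the paper reported Il1b significantly higher in WT colitis than in either WT normal or IL-4Rα-/- colitis. The differences there were larger than on these arrays, and the 2 are unlike measures. A value that was equal in IL-4Rα-/- colitis and WT normal and different in WT colitis was found for 3980 genes (20.0%).

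Of the caspases, Casp1 and Casp4 were highest in IL-4Rα-/- colitis. Casp1, the protease that all canonical inflammasomes recruit, had a log2 signal of 7.75 in IL-4Rα-/- colitis, 7.43 in WT colitis and 6.77 in WT normal. Its difference was 0.32 between IL-4Rα-/- colitis and WT colitis and 0.66 between WT colitis and WT normal. Both colitis arrays lay above WT normal, and the difference between IL-4Rα-/- colitis and WT normal, 0.98 or 1.97-fold, was just short of 2-fold. For Casp1, 41 genes, itself included, were at least as far above WT normal in IL-4Rα-/- colitis. Casp4, the mouse gene once called caspase-11, encodes the protease that senses bacterial lipopolysaccharide in the cytosol. Casp4 had 6.61 in IL-4Rα-/- colitis and 6.15 in both WT arrays, a difference of 0.46 or 1.38-fold. At least as large an increase over WT colitis was found for 212 genes, Casp4 included.

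The sensors differed less. Nlrp6, a sensor of the intestinal epithelium, had 7.70 in IL-4Rα-/- colitis, 7.70 in WT colitis and 7.57 in WT normal. Nlrc4, which reports bacterial flagellin and secretion needles bound by the NAIP proteins, had 5.33 in IL-4Rα-/- colitis and 5.23 in both WT arrays. Aim2, a sensor of DNA in the cytosol, had 6.72 in IL-4Rα-/- colitis, 6.76 in WT colitis and 6.60 in WT normal. For these 3 sensors all 3 arrays lay within 0.16 of each other on the log2 scale. Nlrp3, a sensor of membrane damage and ion efflux, had 2.81 in IL-4Rα-/- colitis, 3.11 in WT colitis and 2.81 in WT normal, which is below the background guide, so no fold is given for it.

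The adaptor and the pore protein were nearly level across the arrays. Pycard had 6.42 in IL-4Rα-/- colitis, 6.37 in WT colitis and 6.13 in WT normal, so both colitis arrays lay slightly above WT normal. Gsdmd had the same deposited value, 6.28, on each array.

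Counted over the 10 genes, only Il18 passed 2-fold. In IL-4Rα-/- colitis against WT colitis, 1 of the 10 genes was more than 2-fold higher and 0 were lower, where 0.271% of all genes were higher and 0.908% lower. In IL-4Rα-/- colitis against WT normal, 1 was higher and 0 lower, against 0.186% and 0.336% of all genes. In WT colitis against WT normal, 0 of the 10 were past 2-fold in either direction, against 1.16% of all genes higher and 0.456% lower. Since Il18 was picked for its increase, nothing is read from these counts. Of the 10 genes, 5 had their highest value in IL-4Rα-/- colitis (Il18, Casp1, Casp4, Nlrc4 and Pycard), 3 in WT colitis (Il1b, Nlrp3 and Aim2) and 2 were tied for the highest. Over all genes 5.62% were highest in IL-4Rα-/- colitis, 30.4% in WT colitis and 56.2% were tied. The order IL-4Rα-/- colitis above WT colitis above WT normal was held by 3 of the 10 genes, Il18, Casp1 and Pycard, and by 391 of all genes (1.96%). Nothing is read from these counts of order either, since Il18 was picked as highest in IL-4Rα-/- colitis. The shares of all genes also include more dim genes: 63.2% of all genes lay above the background guide on at least 1 array, against 9 of the 10. The median log2 difference of the 10 genes was 0.025 between IL-4Rα-/- colitis and WT colitis, 0.20 between WT colitis and WT normal and 0.125 between IL-4Rα-/- colitis and WT normal, beside a median of 0 over all genes in each comparison.

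**Figure D2:**
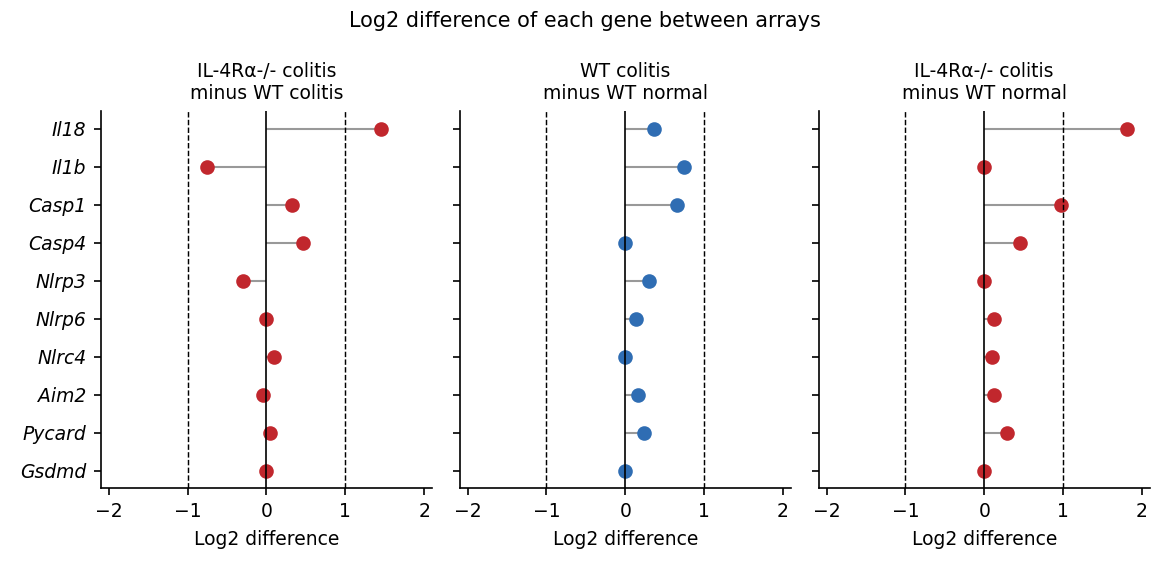
Log2 difference (x axis) of each of the 10 genes (y axis) in IL-4Rα-/- colitis minus WT colitis, WT colitis minus WT normal and IL-4Rα-/- colitis minus WT normal, 1 value per pair of arrays, with dashed lines at 2-fold. Il18 passes 2-fold at 1.45 and 1.81, Casp1 reaches 0.98 in IL-4Rα-/- colitis minus WT normal, and Il1b lies at -0.75, 0.75 and 0.

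The rest of the pathway was followed on 8 lists by role, with 101 of 115 listed genes measured by a probe set of their own. Probe sets shared by several genes are not in the counts. Over the 101, 0 passed 2-fold upward and 0 downward in IL-4Rα-/- colitis against WT colitis, 2 upward and 1 downward in IL-4Rα-/- colitis against WT normal, and 2 upward and 1 downward in WT colitis against WT normal. Between IL-4Rα-/- colitis and WT colitis, 8 of the 101 had a difference above 0, 43 were equal and 50 lay below 0, against 10.4% above, 52.3% equal and 37.3% below over all genes. Genes of these lists that were not past 2-fold, and Il1a, are named after their values were seen.

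Among other sensors and their partners, 0 of 16 measured genes passed 2-fold in any comparison. Nek7, the kinase that NLRP3 needs to assemble, had 7.38 in IL-4Rα-/- colitis, 7.87 in WT colitis and 6.94 in WT normal. Zbp1, a sensor of left-handed nucleic acids, had 7.66 in IL-4Rα-/- colitis, 8.13 in WT colitis and 7.35 in WT normal. Both were highest in WT colitis and intermediate in IL-4Rα-/- colitis. The NAIP genes that serve Nlrc4 differed little. Naip2 had 7.18 on each array, and Naip5 had 7.57 in IL-4Rα-/- colitis, 7.72 in WT colitis and 7.44 in WT normal. NAIP genes are near-identical copies, so their probe sets may read more than 1 of them.

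The gasdermin C genes went the opposite way from Il18. In mice this branch of the pore-forming family is known to be induced in intestinal epithelium by IL-4 and IL-13. Gsdmc4 had 7.85 in IL-4Rα-/- colitis, 8.28 in WT colitis and 9.48 in WT normal. It was lowest in IL-4Rα-/- colitis and was past 2-fold below WT normal on both colitis arrays, with log2 differences of -1.63 in IL-4Rα-/- colitis and -1.20 in WT colitis. Gsdmc2 had 10.09 in IL-4Rα-/- colitis, 10.27 in WT colitis and 10.69 in WT normal. A probe set shared by Gsdmc2, Gsdmc3 and Gsdmc4 had 9.22 in IL-4Rα-/- colitis, 9.67 in WT colitis and 10.27 in WT normal, and one shared by Gsdmc2 and Gsdmc4 had 4.48, 5.25 and 5.99 in the same order. All 4 of these probe sets were lowest in IL-4Rα-/- colitis, but the genes are close copies and the probe sets are not independent. Of the 10 gasdermin and rupture genes measured, 1 was past 2-fold in either comparison with WT normal and 0 between the colitis arrays, with a median log2 difference of -0.115 between them.

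Of 10 other caspases and cytokine-processing proteases, 1 was past 2-fold, Casp12, which lies next to Casp4 on chromosome 9. Casp12 had 4.39 in IL-4Rα-/- colitis, 5.17 in WT colitis and 4.03 in WT normal, a log2 difference of 1.14 between WT colitis and WT normal, which was 0.49 when 32 was added to each linear signal. Unlike Casp1 and Casp4 it was highest in WT colitis. Casp8, an initiator caspase that can also cut IL-1β, had 9.28 in IL-4Rα-/- colitis, 9.68 in WT colitis and 9.28 in WT normal. The neutrophil proteases Elane, Prtn3 and Ctsg lay below the background guide on each array, so no change in them could be seen.

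In the IL-1 family, the other ligands did not share the profile of Il18. Il1a, an alarmin, had 3.05 in IL-4Rα-/- colitis, 3.64 in WT colitis and 2.41 in WT normal, so only WT colitis was above the background guide, and its log2 difference of 1.23 between WT colitis and WT normal is limited by background. Il1rn, the IL-1 receptor antagonist, had 6.99 in IL-4Rα-/- colitis, 7.13 in WT colitis and 6.45 in WT normal. Il33, the ligand of the ST2 receptor, had 4.03 in IL-4Rα-/- colitis, 4.28 in WT colitis and 4.03 in WT normal. Of the 7 ligands and antagonists measured, 3 were above the background guide on at least 1 array, and the median log2 difference between IL-4Rα-/- colitis and WT colitis was -0.25.

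Il18r1, Il18rap, Il18bp and Sigirr had equal deposited values on all 3 arrays, as 45.8% of all genes did. Il18r1 and Il18rap, which encode the chains of the IL-18 receptor, had 2.72 and 2.95 on each array and lay below the background guide. Il18bp, the secreted protein that binds and neutralises IL-18, had 5.58 on each array. Sigirr, an inhibitory receptor of the family, had 6.10 on each array. Il1r2, the IL-1 decoy receptor, had 3.12 in IL-4Rα-/- colitis, 4.02 in WT colitis and 3.12 in WT normal. Of 7 receptors and decoys measured, 0 passed 2-fold, and of 15 signalling genes below them 0 did. Between IL-4Rα-/- colitis and WT colitis, 7 of these 15 were equal and 8 lay below 0. Nfkbia, the NF-κB inhibitor that NF-κB itself induces, had 7.71 in IL-4Rα-/- colitis, 8.29 in WT colitis and 7.30 in WT normal.

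Inputs that prime or trigger inflammasomes fell into different profiles. Of 17 measured by a probe set of their own, 0 passed 2-fold. Gbp2 was not among them because its probe set is shared with Gbp2b. That probe set had 7.38 in IL-4Rα-/- colitis, 7.84 in WT colitis and 6.76 in WT normal. Its log2 difference of 1.08 between WT colitis and WT normal was past 2-fold. Cd14, the lipopolysaccharide co-receptor, had 6.60 in IL-4Rα-/- colitis, 6.10 in WT colitis and 5.75 in WT normal, and Tlr2, a receptor of bacterial lipoproteins, had 6.02, 5.58 and 5.41 in the same order. These followed the order of Il18 with smaller differences. P2rx7, the ATP-gated channel that activates NLRP3, had 5.48 in IL-4Rα-/- colitis, 6.16 in WT colitis and 5.20 in WT normal. Gbp3, a guanylate-binding protein of the group that exposes bacterial lipopolysaccharide, had 5.30 in IL-4Rα-/- colitis, 6.03 in WT colitis and 5.07 in WT normal. Both were highest in WT colitis. Txnip, a thioredoxin-binding protein, had 10.40 in IL-4Rα-/- colitis, 10.53 in WT colitis and 10.54 in WT normal.

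Downstream of IL-18, lymphocytes and NK cells respond with interferon-γ and cytotoxic granules. Of 19 such genes measured, 8 were above the background guide on at least 1 array. Between IL-4Rα-/- colitis and WT colitis, 2 of the 19, Gzma and Gzmb, lay above 0, 11 were equal and 6 lay below 0. Ifng lay at 2.95 on each array, below the guide, so no change in it could be seen. The granule proteases Gzma and Gzmb both passed 2-fold in IL-4Rα-/- colitis against WT normal. Gzmb had 5.63 in IL-4Rα-/- colitis, 4.79 in WT colitis and 4.30 in WT normal, a log2 difference of 1.33 between IL-4Rα-/- colitis and WT normal. Gzma had 5.38 in IL-4Rα-/- colitis, 4.69 in WT colitis and 4.26 in WT normal, a log2 difference of 1.12. The order of the arrays was that of Il18 in both, but Prf1, perforin, lay at 2.72 and Ncr1, an NK cell receptor, at 2.53 on each array, below the guide. When 32 was added to each linear signal, which shrinks differences of dim genes, neither granule protease passed 2-fold.

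**Figure D3:**
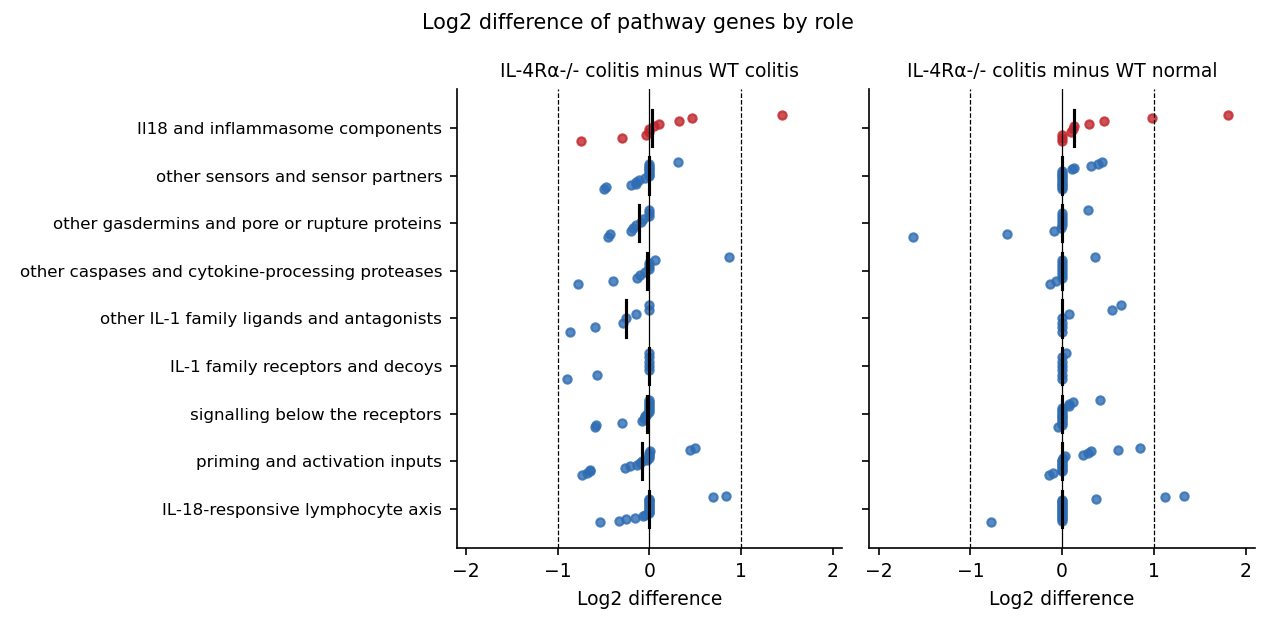
Log2 difference (x axis) of the genes on each list (y axis) in IL-4Rα-/- colitis minus WT colitis (left) and IL-4Rα-/- colitis minus WT normal (right), 1 point per gene, with black bars at list medians and dashed lines at 2-fold. Il18 at 1.45 is the one point of these lists past 2-fold on the left, while on the right Il18 lies at 1.81, Gzmb and Gzma at 1.33 and 1.12 and Gsdmc4 at -1.63.

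Markers of the cells that could carry these transcripts were set beside them. In bulk tissue, fewer cells of a type and less RNA per cell cannot be told apart. Of 14 epithelial markers 0 were past 2-fold in any comparison, and their summed linear signal was 18332 in IL-4Rα-/- colitis, 18198 in WT colitis and 19597 in WT normal. Of 13 macrophage and monocyte markers 0 were past 2-fold, with sums of 1438 in IL-4Rα-/- colitis, 2029 in WT colitis and 1460.0 in WT normal. Between IL-4Rα-/- colitis and WT colitis, 9 of the 13 lay below 0, 3 were equal and 1, Cd14, lay above 0. Of 5 B cell markers 1, Ms4a1, was past 2-fold, in WT colitis against WT normal, with 5.05 in IL-4Rα-/- colitis, 5.99 in WT colitis and 4.87 in WT normal, and the sums of the list were 240 in IL-4Rα-/- colitis, 371 in WT colitis and 239 in WT normal. Of 9 T and NK cell markers 0 were past 2-fold, with sums of 215 in IL-4Rα-/- colitis, 211 in WT colitis and 186 in WT normal. Of 10 neutrophil markers, S100a8 was past 2-fold, with 2.58 in IL-4Rα-/- colitis, 4.27 in WT colitis and 2.62 in WT normal. Only WT colitis was above the background guide, so the differences of S100a8 are limited by background. The neutrophil enzyme gene Mpo was below the guide on each array. The sum of the neutrophil list, 1616 in IL-4Rα-/- colitis, 1894 in WT colitis and 1271 in WT normal, came to 94.8% or more from the single gene Ly6g. Of 7 fibroblast markers 2 were past 2-fold, Dcn with 9.49 in IL-4Rα-/- colitis, 10.76 in WT colitis and 9.49 in WT normal and Pdgfra with 6.48, 7.51 and 6.45 in the same order, and the sums of the list were 1311 in IL-4Rα-/- colitis, 2676 in WT colitis and 1343 in WT normal. The sums of the macrophage, B cell and fibroblast lists were thus all highest in WT colitis, as Il1b was. The neutrophil sum was too, but it reads almost only Ly6g. Of 6 smooth muscle markers 0 were past 2-fold, with sums of 7690 in IL-4Rα-/- colitis, 8361 in WT colitis and 9181 in WT normal. Hoxb13, a homeobox gene of the distal colon, had 7.44 in IL-4Rα-/- colitis, 5.47 in WT colitis and 7.92 in WT normal. Of 6 measured markers of colon identity, Slc26a3, a chloride transporter, was also lowest in WT colitis, with 10.01 in IL-4Rα-/- colitis, 9.05 in WT colitis and 10.11 in WT normal. Car1 was lowest in WT colitis by a small margin, with 12.83 in IL-4Rα-/- colitis, 12.67 in WT colitis and 12.80 in WT normal. Cdx2, Hoxd10 and Muc2 were not lowest in WT colitis. Cdx2 had 7.48 in IL-4Rα-/- colitis, 7.59 in WT colitis and 7.17 in WT normal. Hoxd10 had 5.52, 5.53 and 5.19 in the same order. Car1 and Muc2 differed by at most 0.17 between any 2 arrays. The part of these markers in the differences of Il18 and Il1b was not tested.

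Across all genes, few had a profile like that of Il18. Likeness was taken as the distance between genes in the plane of the 2 differences IL-4Rα-/- colitis minus WT colitis and WT colitis minus WT normal, over 3 arrays. The nearest was Duoxa2, whose product helps dual oxidase mature, at a distance of 0.20, with 8.74 in IL-4Rα-/- colitis, 7.49 in WT colitis and 7.14 in WT normal. It was followed by St8sia5, a sialyltransferase (0.39, with both WT arrays at 3.12 and so below the background guide), Reg3g, an antibacterial lectin (0.45), Ms4a12, a membrane protein (0.455), Slc28a3, a nucleoside transporter (0.48), Gzmb (0.624), Plet1, a surface protein (0.671), and Mep1b, the metalloprotease meprin β (0.690). Reg3g had 10.22 in IL-4Rα-/- colitis, 9.04 in WT colitis and 8.32 in WT normal, so it shared the order of the arrays. The ninth gene lay at 0.691, so the end of this list is arbitrary. Both differences use the WT colitis array, so a shift of that array alone would move a gene in both.

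**Figure D4:**
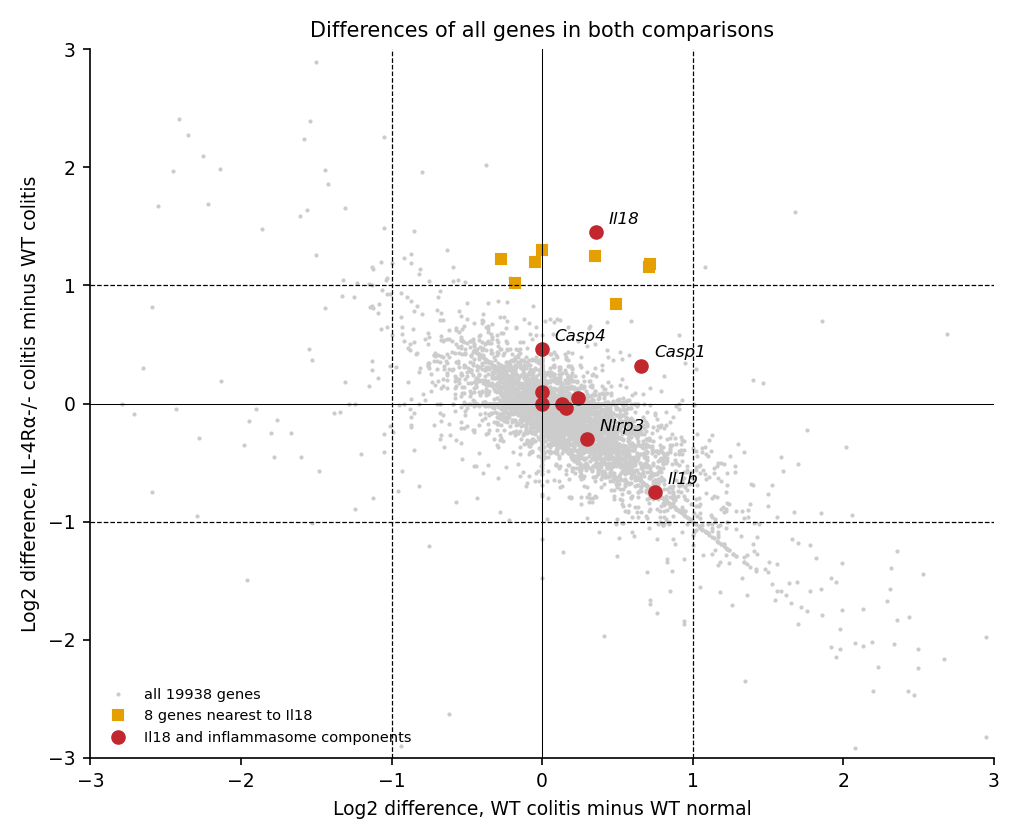
Log2 difference in WT colitis minus WT normal (x axis) and in IL-4Rα-/- colitis minus WT colitis (y axis), 1 grey point per gene for 19938 genes, with the 10 inflammasome genes as circles, the 8 genes nearest to Il18 as squares and dashed lines at 2-fold. Il18 at 0.36 and 1.45 lies above the diagonal band of points, Il1b at 0.75 and -0.75 lies within it, and 26 genes fall outside the plotted range.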

How the data were processed

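Values were used as deposited by the authors, as log2 signal rounded to 2 decimals, for 28944 probe sets of the GeneChip Mouse Gene 1.0 ST array, 1 array of pooled RNA for each of 3 groups. The methods name Affymetrix GeneChip Analysis Suite and describe displayed levels as median centred and log2 transformed, but the algorithm that summarised and normalized the deposited values is stated in no source used here. The labels describe Cy3 labelling with an Agilent kit instead, but the probe set numbers are those of the GeneChip. Symbols came from the platform annotation, which gives 1 symbol for 21789 probe sets, several for 1621 and none here for 5534. The probe set with the highest mean stood for a gene. Log2 differences were taken between deposited values, and more than 2-fold, a log2 difference above 1 or below -1, was counted. With 1 array per group there was no test. The genes and lists were chosen with earlier results of these data known. The rule for named genes took, besides the 10, the genes of the 8 pathway lists past 2-fold with a signal above 4 on at least 1 array (at most 4 per list and comparison), Il18r1, Il18rap, Il18bp, Il4ra and the 8 genes nearest to Il18. Other pathway genes, marker genes and genome neighbours were named after their values were seen. Listed names that the annotation does not use were matched through RefSeq gene numbers. The alternatives were quantile normalization, arrays centred on their medians, an offset of 32 on the linear scale, dim genes left out, the mean of probe sets, and a 1.5-fold threshold. The counting step was tested on simulated data. Python 3.11.15, numpy 2.4.6, pandas 2.3.3 and matplotlib 3.10.9 were used.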

Additional observations from a re-analysis of the deposited data

How the results depend on the processing

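Under 5 other settings, Il18 in IL-4Rα-/- colitis kept its direction and its side of 2-fold, with log2 differences of 1.16 to 1.54 from WT colitis and 1.40 to 1.81 from WT normal, and a place of 21 to 24 and of 8 among the increases of all genes. The lowest values, 1.16 and 1.40, came with an offset of 32, which by construction shrinks the differences of dim genes. With that offset the 2 pathway genes past 2-fold higher in each comparison with WT normal became 0 in WT colitis minus WT normal and 0 in IL-4Rα-/- colitis minus WT normal, and Il1b lay at -0.42 from WT colitis. Casp12 and Il1a fell under 2-fold in the first of these comparisons and Gzma and Gzmb in the second. With a 1.5-fold threshold, 3 of the 101 pathway genes were higher and 9 lower in IL-4Rα-/- colitis against WT colitis, 13 higher and 2 lower in WT colitis against WT normal, and 5 higher and 3 lower in IL-4Rα-/- colitis against WT normal, where the shares of all genes were 0.687% and 3.33%, 4.11% and 1.08%, and 0.792% and 0.813%, in the same order. Of 147 values of the 10 genes under other settings, 141 moved by less than the scaled median absolute deviation of all nonzero differences (0.193 to 0.222), and 6 moved further, all with the offset. Many of the 141 could not have moved further. Leaving out dim genes or averaging probe sets returns the same difference for a gene with 1 probe set. Centring on medians shifted a difference by at most 0.07. The count is therefore no measure of stability. With dim genes left out, Nlrp3 gave no value. No paired analysis was possible because each group is 1 array. Differences of dim genes such as Nlrp3, Il1a and Ifng are limited by background.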

Other observations

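Plet1, 1 of the 8 genes nearest to Il18 in profile, lies close to it on chromosome 9 in RefSeq, with the protein-coding genes Pts and Bco2 between them, which was noticed after the values had been seen. Plet1 had 11.78 in IL-4Rα-/- colitis, 10.56 in WT colitis and 10.83 in WT normal. The genes between them did not share this profile. Pts, an enzyme of tetrahydrobiopterin synthesis, had 5.87 in IL-4Rα-/- colitis, 5.87 in WT colitis and 5.42 in WT normal, and Bco2, a carotenoid-cleaving enzyme whose gene spans the start of Il18, lay below the background guide with 3.24, 3.24 and 3.07 in the same order. Beyond Il18, Sdhd, a subunit of succinate dehydrogenase, had 9.26 in IL-4Rα-/- colitis, 8.99 in WT colitis and 8.93 in WT normal.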
